A study of Sus scrofa with 12 samples.

Results

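The cytosolic ribosomal protein genes encode the proteins that, with ribosomal RNA, build the small (RPS) and large (RPL) subunits of the cytoplasmic ribosome. Because each ribosome needs a copy of nearly every one of these proteins, the genes are active in nearly all cells and are usually counted among the housekeeping genes. Their mRNAs begin with a run of pyrimidines, and the kinase mTOR and the protein LARP1 adjust their translation to nutrients and growth signals. In skeletal muscle, the supply of ribosomes limits how much protein a growing fibre can make.

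Members were the protein-coding genes of the pig genome build Sscrofa11.1 named RPL or RPS with a number, together with RPSA, RPLP0, RPLP1 and RPLP2. Kinase genes (RPS6K) and paralogs named with a final L were left out, as was RPS19BP1, which encodes a binding partner and not a ribosomal protein. This gave 77 gene records with 76 symbols, out of 19550 protein-coding genes on chromosomes 1 to 18, X and Y. Of these, 31 were small subunit and 46 large subunit genes.

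Chromatin accessibility was measured by ATAC-seq, in which a transposase cuts open DNA so that reads gather at open chromatin regions. The tissue was the longissimus dorsi, the long muscle of the back, from male pigs of the breeds Duroc and Luchuan, 3 boars of each, all 180 days old and kept under 1 feeding regime. The question asked here was whether open chromatin at these housekeeping genes differed between the breeds. The RNA-seq libraries of the series, 6 in number, were not analysed here.

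The peak table gives 1 Duroc and 1 Luchuan read count for each peak. The columns name a breed and no boar, and each count was taken as a sum over its 3 boars, so the spread between animals is unknown and no test between breeds was possible. The intervals below are exact 95% intervals for counting error only. Whether PCR duplicates were removed is not known, so the reads may not be independent molecules. The 140081 merged regions held 20759894 Duroc and 13746020 Luchuan reads. Before a ratio was formed, Luchuan counts were multiplied by 1.48, the factor that sets the median log2 ratio of the regions common to both breeds to 0. A log2 ratio above 0 means more reads in Luchuan, below 0 more in Duroc. In whole muscle, a change in the share of a cell type cannot be told apart from a change in accessibility within each cell. The 7 muscle fibre marker genes had 1982 to 2544 reads per kb at their strongest regions, against 476 to 1439 at 3 of the 4 hepatocyte and neuron markers, while ALB of hepatocytes had no region. The high value of that pair of lists was SYP, a vesicle protein of neurons. Both adipocyte markers (254 and 510 reads per kb), both leukocyte markers (207 and 237) and both fibroblast markers (336 and 1034) lay below the muscle markers. PECAM1 of endothelium had 727 reads per kb and CDH5 had no region. Between the breeds, 6 of the 7 muscle fibre markers had log2 ratios below 0 (median -0.09), from -0.48 at MYLPF (2815 Duroc and 1365 Luchuan reads) to 0.07 at ACTA1 (1619 and 1154), and 3 of the 7 intervals lay wholly below 0. PECAM1 had 292 Duroc and 156 Luchuan reads (-0.34, interval -0.63 to -0.06). PTPRC of leukocytes had 53 and 8 reads, whereas CD3E had 13 and 21. The part of these markers' cell types in the ratios below was not tested.

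Every one of the 76 ribosomal protein symbols had at least 1 open chromatin region in the gene or within 2 kb of it. RPL18 is annotated as 2 records, and only that on chromosome 6 had a region. The other, 600 bases long at chr1:84378453-84379052, had none. Altogether, 136 merged regions lay at these genes, and they took 0.26% of Duroc and 0.27% of Luchuan reads. The annotation used here has no strand, so the region with the most reads of both breeds together, called the leading region, stood for the promoter. All 76 leading regions were peaks in both breeds, compared with 90.2% of the leading regions of the 15924 protein-coding genes that had one. At the 10691 genes within the members' range of reads, 10686 leading regions were peaks in both breeds as well, so this was not particular to the members.

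Most leading regions were close to a gene end. The median distance from the region's midpoint to the nearer end was 124 bases, and 66 of 76 (86.8%) lay within 500 bases, against 56.3% over all genes and 66.0% of the 10691 genes within the members' range of reads. Other housekeeping lists were close to the members, with 94.4% of oxidative phosphorylation, 82.1% of proteasome subunit and 77% of mitochondrial ribosomal protein genes. Gene length limits this distance inside a gene and was not matched. Regions were found within 500 bases of 1 end only at 68 members. They were found at both ends of RPL10, RPL32, RPS9 and RPS18, and at neither end of 4 members, including RPL13A, RPL27A and RPS3. For 39 members (51.3%) the leading region was the only one, compared with 21.3% over all genes. The share was 42.3% over oxidative phosphorylation genes, 31.1% over mitochondrial ribosomal protein genes and 17.9% over proteasome subunit genes. The window searched for regions grows with gene length, which was not matched here. The leading regions had a median length of 890 bases, from 503 at RPS21 to 1451 at RPL7.

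Accessibility at the leading region was somewhat above the median of all genes and ranged from 800 to 2049 reads per kb. The median was 1338 reads per kb, both breeds together with Luchuan scaled, against 1216 over all genes, 1400 over genes in the same range of reads, and 2093 over the muscle fibre markers. The median member ranked at percentile 58.9 of all genes. The small and large subunit genes lay close to each other, with medians of 1328 and 1348.

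The most accessible member per length was RPL37, a zinc-binding protein of the large subunit, with 2049 reads per kb. It was followed by RPL18 with 1880, RPL7 with 1809, RPS6 with 1806 and RPS13 with 1803. RPS6 is the substrate of the kinases that mTOR activates. RPL37 held 782 Duroc and 678 Luchuan reads at chr16:25803240-25804109, which placed it at percentile 96.5 of all genes.

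The least accessible members per length were RPL36A with 800, RPS4X with 810, RPL38 with 849, RPL7A with 963 and RPS15A with 974 reads per kb. RPL36A and RPS4X are on the X chromosome, which boars carry in a single copy. The other X-linked members were RPL10, with 1202 reads per kb, and RPL39, with 1327. The 4 X-linked members had a median of 1006 reads per kb, against 1364 for the autosomal members. The part of copy number in these levels was not tested. The 518 X-linked genes of any kind that had a region were lower as well, with a median of 919.

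**Figure D1:**
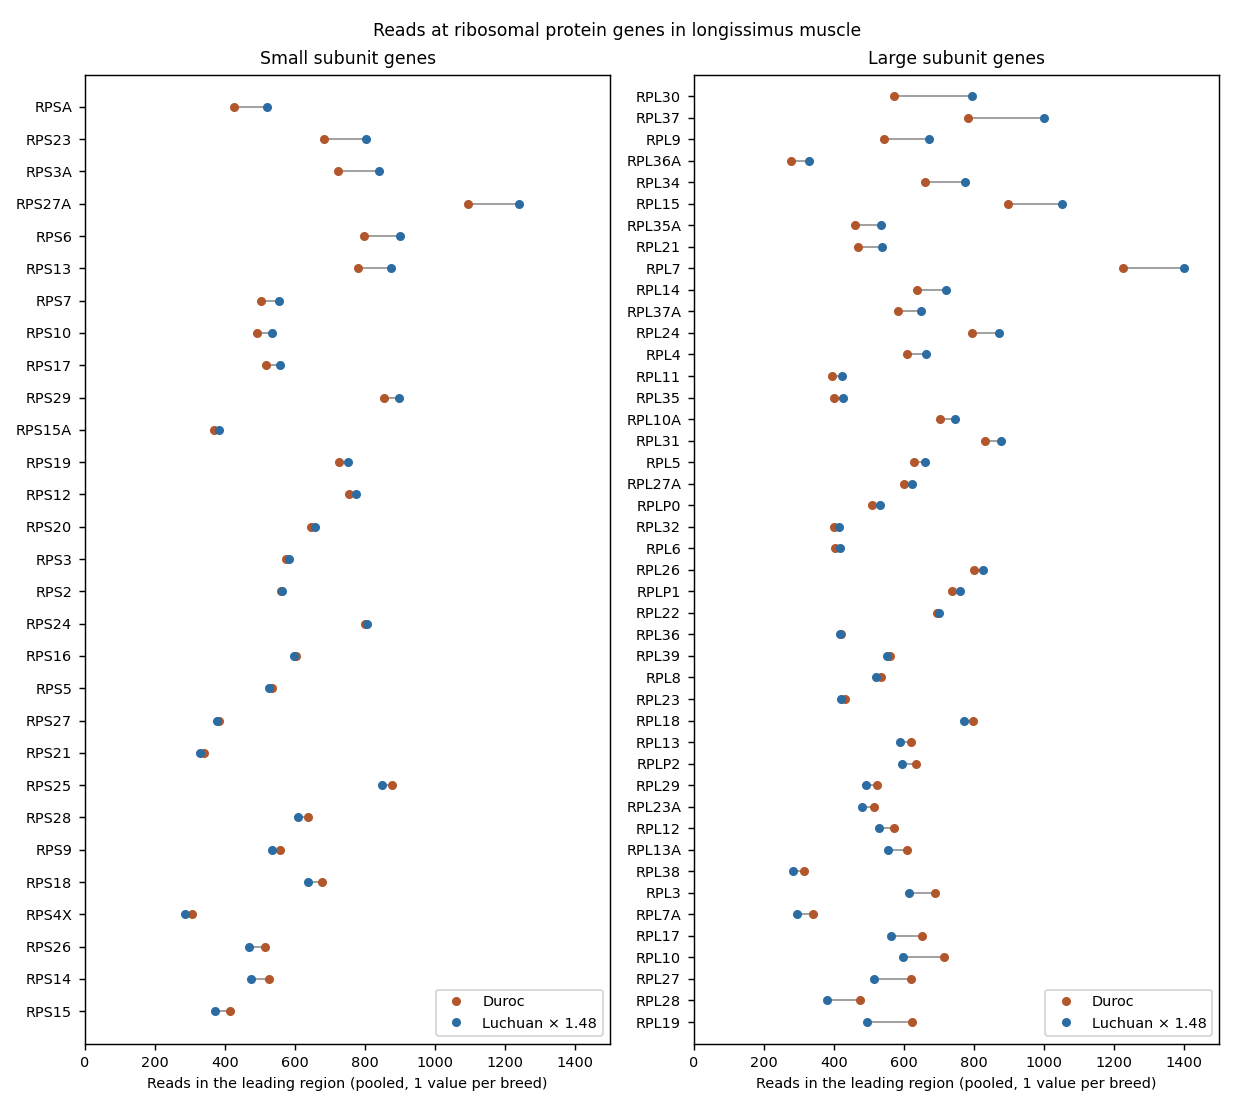
Reads in the leading region of 73 of the 76 ribosomal protein genes (horizontal axis, from 0), small subunit genes on the left and large subunit genes on the right, ordered by the ratio between breeds. Points are the pooled Duroc count and the pooled Luchuan count times 1.48, with no spread between animals. The pairs lie close together for most genes, and RPL7 holds the most reads, 1224 in Duroc and 1400 in Luchuan after scaling.

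Between the breeds, the ribosomal protein genes differed little. Unscaled counts at the leading regions ran from 278 to 1224 in Duroc (median 599) and from 191 to 949 in Luchuan (median 396). After scaling, the median log2 ratio was 0.04, the same as the 0.04 over all genes. Half-widths of the counting intervals had a median of 0.19, and the middle 50% of the members spanned -0.08 to 0.14. The lowest ratio was -0.33 at RPL19 and the highest 0.48 at RPL30. The ratio was above 0 at 44 members and below 0 at 32, a split close to that over all genes (9230 above and 6694 below).

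No leading region of a member reached a 2-fold difference in either direction. Over the leading regions of all genes, 2.59% were 2-fold or more higher in Luchuan and 1.55% in Duroc. In the members' range of reads, 7 of the 10691 genes were that much higher in Luchuan and 24 in Duroc, so a count of 0 among 76 was near this background. At a difference of 25% or more of the lower value (a log2 ratio of 0.32 in either direction), 2 members were higher in Luchuan and 2 in Duroc, or 2.63% each. The shares over all genes were 11.3% and 10.2%, and within the members' range of reads they were 4.35% and 4.89%. Counting intervals lay wholly above 0 at 15 members (19.7%) and wholly below 0 at 6 (7.89%), against 20.7% and 13.3% over all genes, and they included 0 at 55 members.

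**Figure D2:**
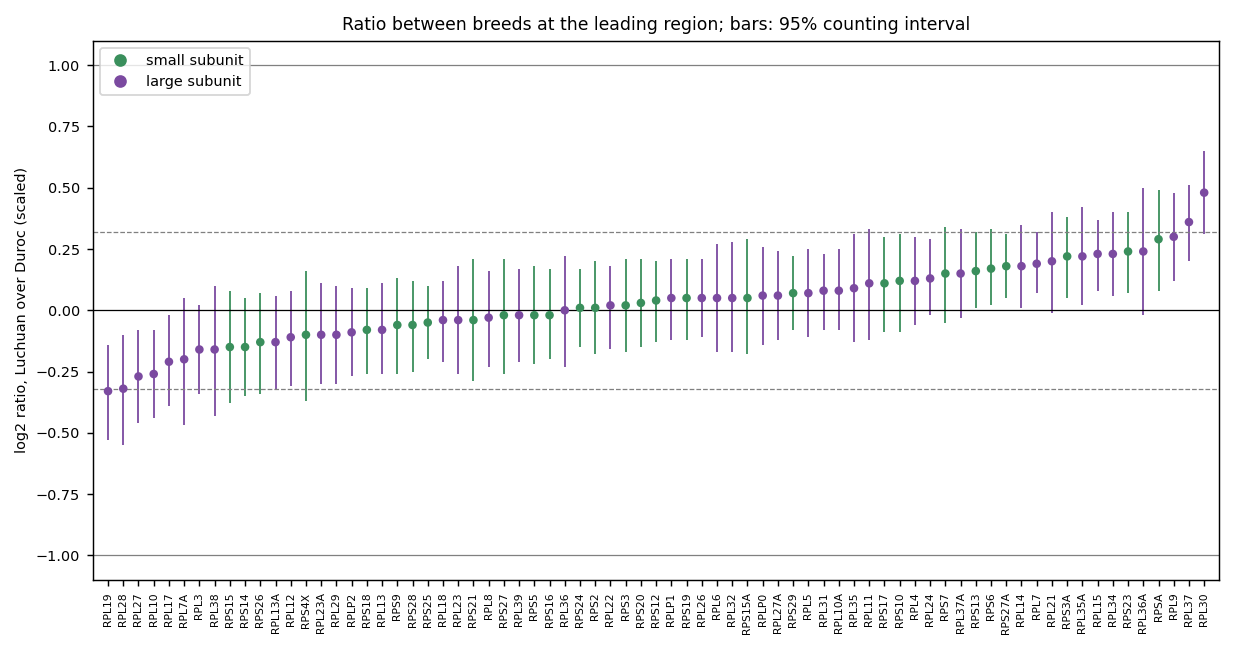
log2 ratio of scaled Luchuan over Duroc reads at the leading region (vertical axis) for 73 of the 76 ribosomal protein genes, ordered by value and coloured by subunit; vertical bars are 95% counting intervals. Dashed lines mark a 25% difference and solid lines 2-fold. No gene reaches 2-fold, and RPL30, at 0.48, stands above the rest.

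The spread of the ratios was larger than counting alone gives. Their SD was 0.16, whereas counting error alone corresponded to an SD of 0.10. The same pair of values was 0.44 and 0.19 over all genes, and 0.21 and 0.09 over genes in the members' range of reads. The part of differences between boars in this spread could not be measured.

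RPL30, a large subunit protein at the contact between the subunits, had the highest ratio. Its leading region, chr4:38716395-38717270, held 570 Duroc and 539 Luchuan reads, which after scaling is 1.40-fold more in Luchuan (log2 ratio 0.48, interval 0.31 to 0.65). It was the only member whose ratio exceeded 0.36. The region is inside an unusually long gene model, 3587 bases from the nearer end, so its place relative to the start of transcription is uncertain.

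RPL37 came next, at 1.28-fold more in Luchuan from the counts given above (log2 ratio 0.36, interval 0.20 to 0.51). Only 1 member was past 25% towards Luchuan when counts were scaled by the median of all leading regions or within classes of signal. The region also lies within 2 kb of CARD6. RPL9, whose region is shared with LIAS, an enzyme of lipoic acid synthesis, held 544 Duroc and 454 Luchuan reads (log2 ratio 0.30, interval 0.12 to 0.48). RPSA, also known as the laminin receptor precursor, held 426 and 352 (0.29, interval 0.08 to 0.49). RPL9 and RPSA were higher in Luchuan beyond counting error and short of a 25% difference.

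RPL19 had the lowest ratio, with 622 Duroc and 335 Luchuan reads at chr12:23033775-23034774. This was 1.26-fold more in Duroc (log2 ratio -0.33, interval -0.53 to -0.14). RPL28 held 475 and 257 reads at chr6:59556310-59556988 (-0.32, interval -0.55 to -0.10), a region that also lies at TMEM238. Both were higher in Duroc beyond counting error and just past a 25% difference. No member passed 25% towards Duroc when counts were scaled by summed reads, by the median of all regions or within classes of signal, or with a pseudocount of 5.

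RPL27 and RPL10 leaned towards Duroc and fell short of 25%. RPL27 had 620 Duroc and 349 Luchuan reads (-0.27, interval -0.46 to -0.08). X-linked RPL10, which is added late in the maturation of the large subunit, had 715 and 404 (-0.26, interval -0.44 to -0.08). The other X-linked members had ratios of -0.10 (RPS4X, 306 and 193 reads), -0.02 (RPL39, 560 and 374) and 0.24 (RPL36A, 278 and 223). Of the X-linked members, 3 were thus below 0 and 1 above, with a median of -0.06. Over all X-linked genes with a region the median was -0.08, with 324 below 0 and 194 above.

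The subunits did not stand apart. The median log2 ratio was 0.02 over the 31 small subunit genes and 0.05 over the 45 large subunit genes with a region, a difference of -0.03. All 4 members past a 25% difference were large subunit genes. The P stalk genes RPLP0, RPLP1 and RPLP2, whose proteins recruit elongation factors, had ratios of 0.06, 0.05 and -0.09. RPL5 and RPL11, which can bind and inhibit MDM2, the regulator of p53, had ratios of 0.07 and 0.11.

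In 72 members each breed had a single peak at the leading region. The peak was wider in Duroc at 49 of them (68.1%), with a median width of 862 bases against 819 in Luchuan. Over all genes the Duroc peak was wider in 68.9%, a share close to that of the members. Duroc also had the greater depth, and its part in the widths was not tested.

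**Figure D3:**
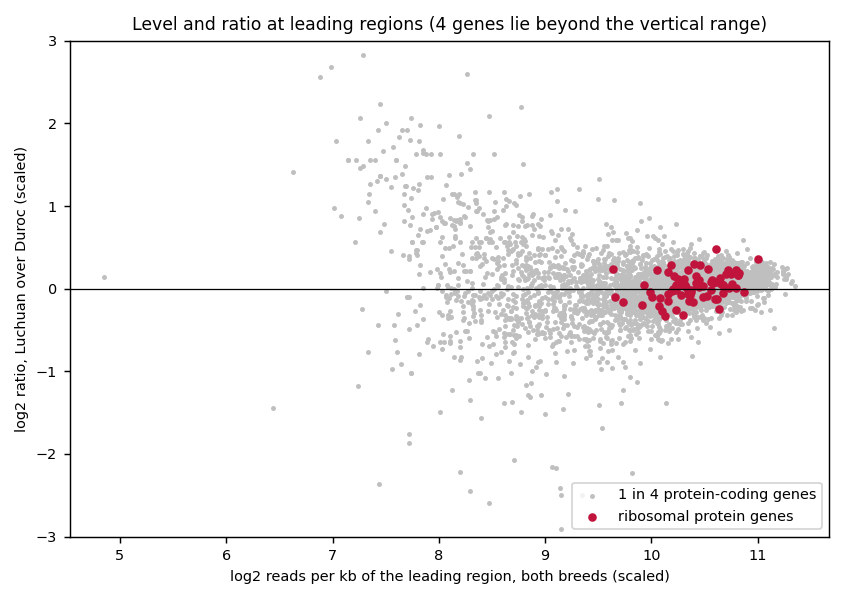
log2 ratio between the breeds (vertical axis) against log2 reads per kb of the leading region (horizontal axis), for ribosomal protein genes in red and 1 in 4 protein-coding genes in grey. The red points, between -0.33 and 0.48, sit on the right, where grey points are also close to 0; ratios spread widely mainly at weak regions on the left.

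Beside the leading regions, 37 members had another 60 regions. Of these, 34 were common to both breeds, 19 were Duroc-specific and 7 Luchuan-specific, and their median length was 262 bases. Their median counts were 118 Duroc and 54 Luchuan reads, and their median log2 ratio was -0.12, against -0.01 over all merged regions. Thus the weaker regions carried the breed-specific calls. The count of common regions was 110 of all 136 (80.9%), and 49.1% of all merged regions were common. These sets differ in depth, with median counts of 402 Duroc and 270 Luchuan reads at the 136 regions and 61 and 38 over all merged regions. Without the leading regions the share was 56.7%, near the 51% of regions in or within 2 kb of any gene.

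A 2-fold difference was reached by 1 of the 136 regions, towards Duroc. Over all merged regions, 7.41% were 2-fold or more higher in Luchuan and 5.34% in Duroc. The region was a Duroc-specific peak at chr1:167299761-167300049, 1641 bases beyond the higher-coordinate end of RPLP1. It held 172 Duroc and 43 Luchuan reads (log2 ratio -1.41, interval -1.96 to -0.95). The leading region of RPLP1 held 738 and 516 reads and had an interval that included 0 (0.05, interval -0.12 to 0.21).

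Of the 60 weaker regions, counting intervals lay wholly below 0 at 6 (10%), RPLP1's among them, and wholly above 0 at 1 (1.67%). Over all merged regions the shares were 15.7% and 13.4%, so neither direction was in excess of the background. RPS3, a protein at the mRNA entry of the small subunit, had 125 Duroc and 48 Luchuan reads in a region inside the gene (-0.80, interval -1.33 to -0.33). A Duroc-specific region of RPL28 held 142 and 56 reads (-0.77), and one inside RPL38 held 121 and 50 (-0.70). RPL13A had 219 and 96 reads in a region inside the gene (-0.62), and a Duroc-specific region inside RPL10 had 116 and 51 (-0.61). All were weaker than the leading regions of their genes.

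The region with an interval above 0, inside RPL14, held 501 Duroc and 394 Luchuan reads (0.22, interval 0.02 to 0.41), which is 79.8% of the reads in the leading region of the gene, where 636 and 488 reads were counted (0.18, interval 0.01 to 0.35). RPL14 was thus the member with the most even pair of regions.

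A second region with at least 25% of the leading reads was present at 18 members. After RPL14 the highest shares were at RPLP0 (74.0%, 387 Duroc and 259 Luchuan reads), RPL11 (50%), RPL17 (49.8%), RPL26 (48.1%), RPS26 (47.9%) and RPL32 (47.3%). The others were RPS2, RPL4, RPLP2, RPS10, RPS18, RPL8, RPLP1, RPL38, RPL13A, RPL10 and RPL28, with shares of 26.3% to 42.7% at their strongest second region. At RPL17 and RPL4, both proteins of the wall of the peptide exit tunnel, the leading region lay more than 1 kb outside the gene (1358 and 1211 bases) and the second region was close to the opposite end. The second region of RPL17 had 299 Duroc and 207 Luchuan reads (0.03, interval -0.23 to 0.29), compared with 651 and 382 at the leading region (-0.21, interval -0.39 to -0.02).

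At 27 members (35.5%) the leading region also lay in the window of another gene, compared with 29.1% over all genes. Such partners included NKIRAS1 for RPL15, VPS52 for RPS18, SPG7 for RPL13, and both NDUFA7 and KANK3 for RPS28. The median log2 ratio was 0.04 at the shared and 0.05 at the 49 unshared regions. Reads of a shared region cannot be divided between the genes.

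Among ribosomal proteins outside the naming rule, RACK1 had a ratio of 0.06 (667 Duroc and 470 Luchuan reads) and FAU one of -0.08 (423 and 271). Both intervals included 0. Of the 7 annotated paralogs with a final L, 6 had a region and RPL10L had none. RPL3L, which takes the place of RPL3 in muscle ribosomes, had 2058 reads per kb, more than any member, with 924 Duroc and 551 Luchuan reads (-0.18, interval -0.34 to -0.03). RPL3 itself had 1348 reads per kb and a ratio of -0.16 (interval -0.34 to 0.02). RPL26L1 had 368 and 184 reads (-0.43), whereas RPL22L1 had 679 and 561 (0.29).

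The genes that work with the ribosome were described in the same way, and no gene in these lists reached 2-fold. The 8 elongation factors had a median log2 ratio of -0.10, with 5 lower and 3 higher in Luchuan. EEF1A1, which delivers aminoacyl-tRNA to the ribosome, had 654 Duroc and 328 Luchuan reads (-0.43, interval -0.63 to -0.24). EEF1A2, its muscle and neuron paralog, had 680 and 408 reads (-0.17, interval -0.36 to 0.00).

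The 48 initiation factor genes had a median of 0.07 and the 20 ribosome biogenesis genes a median of 0.04. The extremes of the first list were EIF2B1 (-0.27) and EIF2AK2 (0.32), and those of the second were BOP1 (-0.38, 761 Duroc and 396 Luchuan reads) and POLR1E, an RNA polymerase I subunit (0.22). None of the initiation factors and 1 of the biogenesis genes, BOP1, passed a 25% difference. EIF2AK2 fell just short of that threshold, by less than the digits given here show.

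A list of 14 genes around the control of ribosomal protein mRNAs held mTOR pathway genes, the member RPS6, the transcription factor MYC, and EIF4E, EIF4EBP1 and EIF4EBP2, which are also among the initiation factors. Of these, 9 were lower and 5 higher in Luchuan, with a median of -0.06. RPS6KB2, a kinase of RPS6, had 509 Duroc and 221 Luchuan reads (-0.64, interval -0.88 to -0.41) and was the only one past a 25% difference. EIF4EBP1, a repressor of cap-dependent initiation, had 714 and 598 reads (0.31, interval 0.15 to 0.46). MTOR (0.01) and LARP1 (-0.07) had intervals that included 0.

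As other housekeeping lists, the 74 mitochondrial ribosomal protein genes had a median log2 ratio of 0.03 and 1293 reads per kb. The 71 oxidative phosphorylation genes had 0.09 and 1287, and the 39 proteasome subunit genes with a region had 0.09 and 1392. In these lists 2.7%, 1.41% and 5.13% of the genes were past a 25% difference towards Luchuan, and 1.35%, 1.41% and 2.56% towards Duroc. The only gene of the 3 lists past 2-fold was PSMA8, with 5 Duroc and 9 Luchuan reads (1.30, interval -0.32 to 3.33), at a depth where no difference was detectable. The cytosolic ribosomal protein genes thus lay within the range of the other housekeeping lists on both measures.

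**Figure D4:**
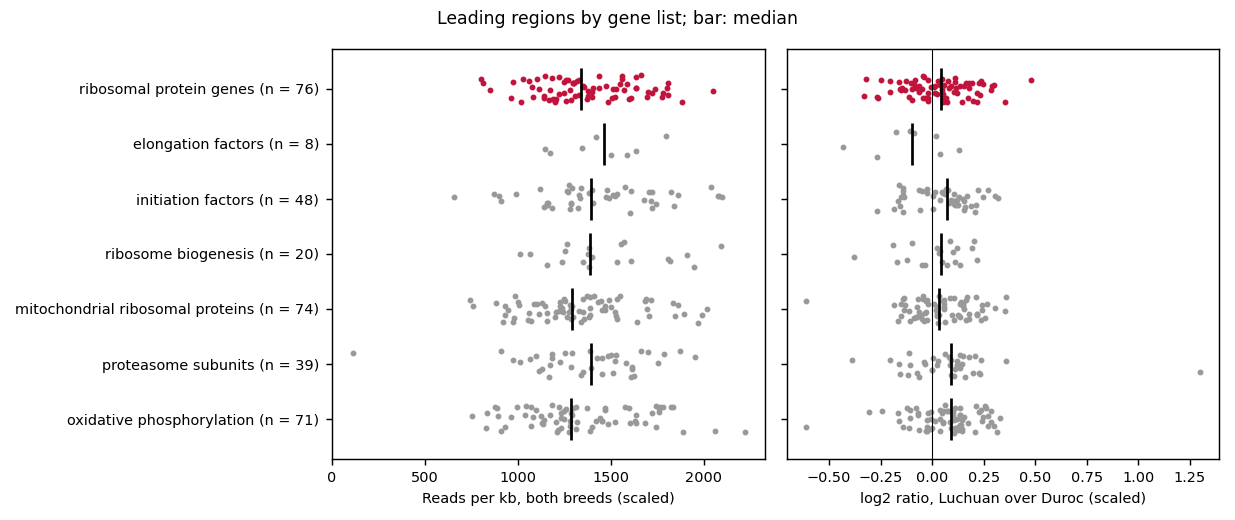
Reads per kb of the leading region (left, from 0) and log2 ratio between the breeds (right) for genes with a region in each list; points are genes and black bars medians. The ribosomal protein genes, at medians of 1338 reads per kb and 0.04, overlap all other lists, and the point far to the right is PSMA8.

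The small differences among members varied with the surroundings of the gene in the genome, a comparison chosen after values had been seen. For each member, neighbours were the other protein-coding genes with a leading region within 1 Mb. Across the 76 members, the log2 ratio correlated with the median ratio of the neighbours (Pearson's r = 0.61, Spearman's rho = 0.66, r = 0.61 without the 2 members farthest from the median). It correlated inversely with the number of neighbours (r = -0.57, rho = -0.62, and r = -0.54 without the 2 farthest). These are descriptions across genes, among 7 such relations computed, which share the same pair of pooled libraries, depth and scaling, and in part the same neighbours. Base composition moves with gene density in general and was not measured here.

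Other genes in the members' range of reads showed the same pattern more weakly, with r = 0.37 for the neighbours' ratio (10586 genes) and r = -0.29 for their number (10615 genes). The difference between members and other genes was not tested. Members were split by the number of neighbours into 3 groups. The 25 with the fewest (3 to 15) had a median ratio of 0.15. The lowest of them was RPL17, at -0.21, where the leading region lay 1358 bases outside the gene. Its region near the opposite end of the gene had 0.03. The 25 in the middle (15 to 34) had a median of 0.06. The 26 in the most gene-rich surroundings (35 to 77) had a median of -0.06. Medians of the other genes in the same classes fell in the same order, at 0.11, 0.02 and -0.04.

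**Figure D5:**
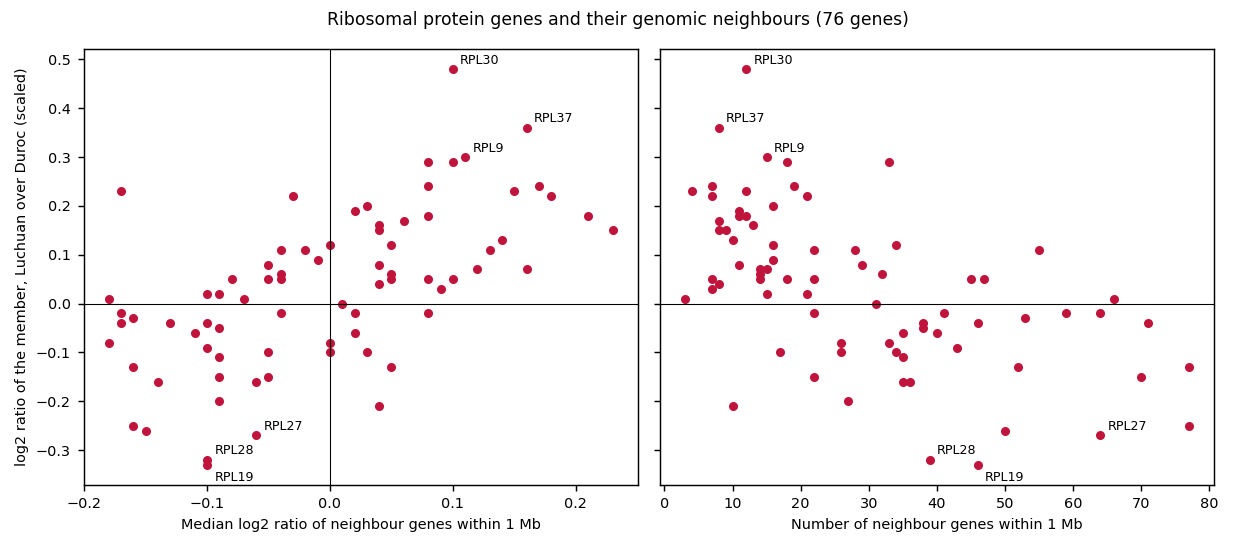
log2 ratio of each ribosomal protein gene (vertical axis) against the median log2 ratio (left) and the number (right) of other genes within 1 Mb. Points rise from lower left to upper right on the left, and fall with the number of neighbours on the right; RPL30 and RPL37 are at the top and RPL19, RPL28 and RPL27 at the bottom.

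The members with the most extreme ratios had neighbours that leaned the same way. RPL37, RPL9 and RPL30, with ratios of 0.36, 0.30 and 0.48, had 8, 15 and 12 neighbours, whose median ratios were 0.16, 0.11 and 0.10. RPL19, RPL28 and RPL27, with -0.33, -0.32 and -0.27, had 46, 39 and 64 neighbours with medians of -0.10, -0.10 and -0.06. The ratio exceeded the neighbours' median most at RPL15 (0.23 against -0.17 over 4 neighbours, a difference of 0.39) and at RPL30 (a difference of 0.38). After the neighbours' median was subtracted, the SD of the members was 0.13, against 0.16 before.

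By chromosome, the 3 members on chromosome 8 (RPL9, RPL34 and RPS3A) had ratios of 0.22 to 0.30, and other genes of that chromosome had a median of 0.12. The 6 members on chromosome 12 ran from -0.33 to 0.05 with a median of -0.13, beside a median of -0.05 for its other genes. Chromosome 6, with the most members (12), had a median of -0.03 over members and -0.02 over other genes. Members and other genes lay on opposite sides of 0 on chromosome 5 (-0.15 over 2 members and 0.06 over other genes) and on chromosome 17 (-0.04 at 1 member and 0.04). On chromosome 9, the 3 members had a median of 0.02, below the 0.10 of other genes. The ratio also correlated weakly with the level, with r = 0.33 between log2 ratio and log2 reads per kb over the 76 members.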

How the data were processed

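ATAC-seq reads of longissimus dorsi from 3 Duroc and 3 Luchuan boars were filtered by the authors with Trimmomatic (0.36), aligned to Sus scrofa 11.1 with Bowtie2 and used to call peaks with MACS2. Handling of duplicates, shifting of reads for the transposase and pooling are not given in the sources used here. The authors deposited raw read counts, 1 per breed and interval. They also deposited a rescaled log2 fold change, a rescaled mean log2 signal and a p-value for each interval, which compare the breeds and were not used.

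Of the 217213 intervals, overlapping or adjoining common ones were merged and the longest was kept. Starts were read as counted from 0 and are given counted from 1. Luchuan counts were multiplied by 1.48, which sets the median log2 ratio of common regions to 0, with a pseudocount of 1. Regions were assigned to RefSeq genes (Sscrofa11.1) when the midpoint lay in the gene or within 2 kb. For each region, the exact Clopper-Pearson bounds (95%) on Luchuan's part of the reads were carried to the scaled log2 ratio. With 1 value per breed, the fit for replicated counts that had been planned in case columns were per animal was not made.

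Members and lists were chosen with earlier results of these data known, and the comparison with neighbouring genes was added after values had been seen. Named in full were the 5 highest and 5 lowest members by ratio and by reads per kb, members with a region past 2-fold, X-linked members and those with a second region of at least 25% of the leading reads, and up to 4 genes per list. Some genes that this rule names are not reported here, and they are counted in every total but not drawn in the plots by gene. Promoter sequences were not analysed here. The scripts were tested on simulated counts. Computation was done in Python (3.11.15) with pandas (2.3.3), NumPy (2.4.6) and SciPy (1.17.1), and plots were drawn with Matplotlib (3.10.9). Alternatives covered scaling, pseudocount, filters, merging and windows.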

Additional observations from a re-analysis of the deposited data

How the results depend on the processing

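No paired analysis was possible because the count columns carry no replicate numbers, and for the same reason no boar could be left out. Over 22 alternative settings, of which 6 were chosen after seeing the data, 85 of 99 values stayed close to the reported ones and 14 moved. A median log2 ratio counted as close when it moved by less than 0.19, the median half-width for a single region. That is a wide margin for a median over 76 members. Some settings, such as at least 20 reads or windows of 1 kb and 5 kb, kept all 76 members and left the values unchanged. The median log2 ratio of the members stayed between 0.00 and 0.08 in 17 settings. Without scaling it changed sign to -0.52, where the larger Duroc total of reads in the regions enters every ratio. Every scaling factor came from reads in the regions, and scaling by the total of sequenced reads was not run. The count of members past 2-fold was 0 in all 16 settings, and the median reads per kb stayed between 1314 and 1348.

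Counts past a 25% difference were few and moved with the scaling. Towards Duroc they were 0 with scaling by summed reads, by the median of all regions or within classes of signal and with a pseudocount of 5, 1 without shared regions and 70 without scaling. Towards Luchuan they were 4 with summed reads, 1 with scaling by the median of all leading regions or within classes of signal, 1 within 2 kb of gene ends only, 1 without shared regions and 0 without scaling. The share of common regions was 89.6% over every deposited interval, since a common peak is then listed once per breed. The relations with the neighbours' ratio and number had r of 0.55 to 0.65 and -0.61 to -0.52. Choosing the region at the annotated start was not run, for lack of strand. The unknown spread between boars limits every comparison.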
